A study of Mus musculus with 4 samples.

Results

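A set of 10 genes that define or serve the insulin-producing beta cell (10 of 21883 protein-coding genes) was examined for binding of NKX2.2 in alphaTC6 cells, a mouse line that stands for the glucagon-producing alpha cell. The genes were chosen by name, as Ins1, Ins2, Iapp, Ucn3, Pdx1, Mafa, Slc2a2, G6pc2, Slc30a8 and Ero1b, and all 10 were found by symbol in the gene table. The study made NKX2.2 chromatin immunoprecipitation (ChIP) libraries and input libraries from this line, 2 samples of each. ChIP-seq pulls down the DNA that a factor occupies with an antibody to it and reads its sequence, and input is the DNA before that step. Both groups are the same line, labelled wild type, with no treatment, so the only contrast is antibody-enriched against input DNA.

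The data are 1 list of 7384 peak summits, each the base of highest enrichment within a peak that the authors called with MACS2. The list carries the authors' score for each summit, the −log10 of its q-value against input, from 2.03 to 1648 with a median of 13.7. Ranks below count from the highest score among all 7384. The list has no value per library, so read depth is unknown, no value has a replicate error, and an absent summit means only that no peak was called. The labels describe the line as alpha cells. The list has no expression values, so this label was not checked against markers, and transcription of the 10 genes was not analysed here.

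NKX2.2 is a homeodomain transcription factor of the NK2 family, needed for the formation of the islet's beta cells and present in mature alpha and beta cells. In beta cells it takes part in keeping beta identity, and it can act as an activator or, through Groucho corepressors, as a repressor. Occupancy alone does not tell these modes apart. Because alpha and beta cells share this factor but not their hormone, the 10 genes address whether it sits at beta cell genes in an alpha line, and at what distance.

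Of the 10 genes, 5 had a summit in the gene or at most 10 kb from it: Iapp, Pdx1, G6pc2, Slc30a8 and Ero1b. At 10 kb, 25.8% of all protein-coding genes had one. Widening the window to 50 kb added no gene, leaving 5 of 10 against 43.8% of all genes. At 100 kb Mafa and Slc2a2 were added, giving 7 of 10 against 55.3%. With 10 genes, shares of 5 and 7 stand near the background at 50 and 100 kb. Ins1, Ins2 and Ucn3 had no summit within 100 kb. A summit inside the gene itself was present at 1 of the 10, G6pc2, where 13.4% of all genes had one.

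**Figure D1:**
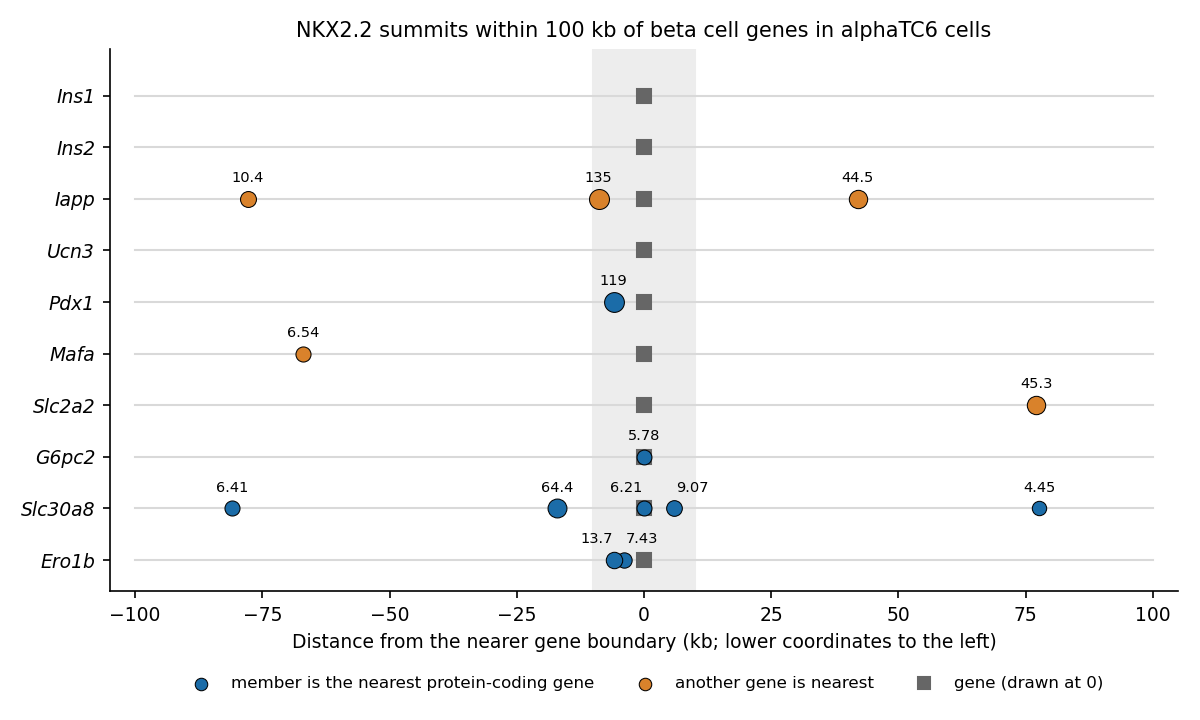
Summits within 100 kb of each beta cell gene, at their distance in kb from the nearer gene boundary (x axis, gene drawn at 0, lower coordinates to the left), 1 row per gene. Each point is 1 summit, its area grows with the logarithm of the score printed above it, the grey band spans 10 kb on each side, and the colour says whether the row's gene or another is the nearest protein-coding gene. The rows of Ins1, Ins2 and Ucn3 are empty, and the 2 highest scores are at Iapp (135) and Pdx1 (119).

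Sequence before the annotated start sites was read for 7 of the 10 genes, from the RefSeq promoter windows of GRCm38.p6, which run from 250 bases before each start to 50 after it. The set of windows used here held none for Ins2, Mafa and Slc30a8, so summits in their start windows were not assessed. Of the 8 windows of the 7 genes (G6pc2 has 2 starts), 1 held a summit. Among all 32851 promoter windows, 1624 held one, and 8 windows are too few to set against that share. The 1 window with a summit belonged to the downstream start of G6pc2. There the summit at chromosome 2 position 69219941 lay 8 bases before the start. The 250 bases before 5 starts are shown 5′ to 3′ on the strand of the gene: that of G6pc2 because it holds the summit, those of Pdx1 and Iapp because their strong summits lie kilobases away from it, and those of Ucn3 and Ins1 because no summit lies near. In the G6pc2 sequence (chr2:69219699-69219948, plus strand) capitals mark the 15 bases centred on the summit. In the others, at chr5:147269847-147270096 (Pdx1, plus strand), chr6:142298175-142298424 (Iapp, plus strand), chr13:3945350-3945599 (Ucn3, minus strand) and chr19:52264047-52264296 (Ins1, plus strand), capitals mark matches to AAGTG or to the longer sites built on it, described below. Matches to TAAT, also counted below, are not marked as such, and 1 of them lies within the capitals of the G6pc2 sequence.
G6pc2: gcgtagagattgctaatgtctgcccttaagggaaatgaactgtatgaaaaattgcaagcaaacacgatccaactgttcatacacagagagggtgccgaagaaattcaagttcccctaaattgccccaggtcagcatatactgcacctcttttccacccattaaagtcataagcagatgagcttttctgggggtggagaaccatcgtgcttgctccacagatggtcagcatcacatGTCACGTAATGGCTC
Pdx1: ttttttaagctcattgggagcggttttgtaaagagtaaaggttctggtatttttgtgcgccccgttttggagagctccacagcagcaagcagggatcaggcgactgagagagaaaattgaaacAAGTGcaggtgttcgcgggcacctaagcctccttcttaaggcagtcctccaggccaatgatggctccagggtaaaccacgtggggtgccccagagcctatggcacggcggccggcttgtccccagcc
Iapp: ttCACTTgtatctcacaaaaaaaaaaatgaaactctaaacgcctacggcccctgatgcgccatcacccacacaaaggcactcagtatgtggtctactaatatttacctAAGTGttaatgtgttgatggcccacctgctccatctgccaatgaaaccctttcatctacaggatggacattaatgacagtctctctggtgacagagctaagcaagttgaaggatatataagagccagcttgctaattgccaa
Ucn3: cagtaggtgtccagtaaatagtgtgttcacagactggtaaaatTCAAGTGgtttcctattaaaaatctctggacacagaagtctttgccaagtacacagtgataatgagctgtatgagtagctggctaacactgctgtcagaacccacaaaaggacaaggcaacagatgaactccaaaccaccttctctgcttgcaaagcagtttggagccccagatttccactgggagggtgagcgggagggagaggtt
Ins1: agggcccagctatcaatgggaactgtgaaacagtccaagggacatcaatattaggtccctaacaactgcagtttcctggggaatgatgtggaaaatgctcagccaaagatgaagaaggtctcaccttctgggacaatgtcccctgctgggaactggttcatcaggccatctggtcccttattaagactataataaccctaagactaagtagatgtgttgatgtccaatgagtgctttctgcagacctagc

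The first motif searched was AAGTG, the core of the NK2 family site. A longer form, CACTTGA, holds the reverse complement of that core and is here called the full site. The form CACTTNA, which leaves 1 base free, is called the relaxed site. The last, TAAT, is a core shared by many homeodomain factors. All were sought on both strands, so each full or relaxed site is also a match to AAGTG. The full site was present once among the 8 windows, before Ucn3, where no summit was called within 100 kb. The same window held the only relaxed site among the 8, which is the same match. The window of G6pc2 that holds the summit had no AAGTG and 3 TAAT matches. Iapp had 2 AAGTG matches, Pdx1, Slc2a2 and Ucn3 had 1 each, and the 1 of Ins1 lay after the start, outside the part shown. Neither Ero1b nor the upstream start of G6pc2 had any. Of 32851 promoter windows of 300 bases, 3.06% held the full site, 11.5% the relaxed site, 46.4% the AAGTG core and 58.0% the TAAT core. In the 1624 windows with a summit inside, the shares were 2.65%, 9.05%, 45.1% and 38.1%. A match describes letters in a window and is not evidence of a bound site.

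The hormone genes came first. Mouse has a pair of insulin genes, and neither had a summit near it. Ins1 (gene ID 16333, chromosome 19, 52264297 to 52265015) was 774 kb from the nearest summit, at position 53038678 with a score of 16.8 and rank 3071. That summit lay 16 bases outside Xpnpep1, another protein-coding gene. Of the protein-coding genes on chromosomes with summits, 87.6% had a summit at least as near as Ins1 did. Within 1 Mb of Ins1 there were 3 summits, where the median protein-coding gene had 8.

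Ins2 (gene ID 16334, chromosome 7, 142678656 to 142679726) lay in a region with more summits, 13 within 1 Mb, and still had none within 100 kb. Its nearest summit was 218 kb away at position 142897607, with a score of 14.1 and rank 3637. It lay inside Th, the gene of tyrosine hydroxylase, the first enzyme of catecholamine synthesis. The next 2 nearest summits, with scores of 8.37 and 2.46, also had Th as their nearest protein-coding gene, 3.16 kb and 5.28 kb outside it. All 3 were thus set around Th and not around Ins2. A summit at least as near was found for 69.5% of genes.

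Iapp (gene ID 15874, chromosome 6, 142298425 to 142303820) encodes islet amyloid polypeptide, the peptide that beta cells release together with insulin. It had the highest-scoring summit of the 10 genes, at position 142289529, 8.90 kb upstream of its start, with a score of 135 and rank 253. Iapp and this summit both lie within the span of Slco1a5, an organic anion transporter gene, so by distance Slco1a5 counts as the nearest gene. The summit was 33452 bases from the closer end of Slco1a5, and the nearest annotated start site was that of Iapp. A second summit, 42.0 kb downstream, had a score of 44.5 and rank 1020 and lay 223 bases inside the boundary of Pyroxd1. Another, 77.9 kb upstream, had a score of 10.4 and lay outside genes, with Slco1a5 again the nearest. Of the 3 summits around Iapp, none therefore had Iapp as its nearest protein-coding gene.

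Ucn3 (gene ID 83428, chromosome 13, 3940688 to 3945349) encodes urocortin 3, a peptide that marks mature beta cells in mouse. Its nearest summit was 307 kb downstream, at position 3634016, with a score of 12.4 and rank 4064. It lay inside Asb13, 16 bases from an annotated start of that gene, and 6 protein-coding genes stood at or between the summit and Ucn3. A summit at least as near was found for 75.0% of genes.

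The 2 transcription factor genes differed. Pdx1 (gene ID 18609, chromosome 5, 147270097 to 147275848) encodes the homeodomain factor that drives pancreas formation and, in beta cells, insulin gene transcription. It had 1 summit within 100 kb, at position 147264113, with a score of 119 and rank 298. The summit was 5.98 kb upstream of the start, with no protein-coding gene in between. It lay inside Plut, a long noncoding RNA gene whose span reaches into Pdx1. The next nearest summit was 358 kb away with a score of 271 and rank 94, and Gtf3a was its nearest protein-coding gene. The Pdx1 summit thus had no neighbour within 100 kb of the gene.

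Mafa (gene ID 378435, chromosome 15, 75745501 to 75748321) encodes the basic leucine zipper factor of mature beta cells that binds the insulin promoter. Its only summit within 100 kb lay 67.0 kb away at position 75678488, with a score of 6.54 and rank 6086. That summit was 312 bases inside the boundary of Top1mt, the gene of mitochondrial topoisomerase, and Rhpn1 lay between it and Mafa. The next summit, 113 kb away on the other side with a score of 31.8, was 734 bases outside Gsdmd. With 21 summits within 1 Mb, more than or as many as around 90.9% of genes, Mafa had the richest surroundings of the 10, yet none close by.

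Among the genes of glucose handling, Slc2a2 (gene ID 20526, chromosome 3, 28697903 to 28728361), which encodes the glucose transporter GLUT2, had 1 summit within 100 kb. It lay 77.1 kb downstream at position 28805417, with a score of 45.3 and rank 1002, and 91 bases outside Rpl22l1, a ribosomal protein-like gene. Its nearest annotated start, 66 bases away, was that of the noncoding gene Gm32950. The next nearest summit, upstream, was 759 kb away with a score of 6.91. Slc2a2 had 2 summits within 1 Mb, the fewest of the 10 genes.

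G6pc2 (gene ID 14378, chromosome 2, 69211073 to 69227993) encodes the islet glucose-6-phosphatase catalytic subunit, an enzyme that removes phosphate from glucose-6-phosphate. Its summit, described above beside the sequence, was the only one inside any of the 10 genes, and 8052 bases from the closer end of the gene. The score of 5.78 ranked 6370, in the lowest 13.7% of the list. The next nearest summits were 794 kb and 886 kb away, so this weak summit was isolated. Exons and introns were not resolved.

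The 2 genes of secretory granules and protein folding had 7 of the 14 summits within 100 kb of the 10 genes. Slc30a8 (gene ID 239436, chromosome 15, 52295553 to 52335798) encodes ZnT8, which loads zinc into granules for insulin storage and is also found in alpha cells. It had 5 summits within 100 kb, the most of the 10, and was the nearest protein-coding gene of each. The closest, at position 52295519, lay 34 bases outside the boundary at lower coordinates, with a score of 6.21 and rank 6201. A second, 5.99 kb beyond the other boundary, had a score of 9.07. The highest, 17.0 kb away at position 52278572, had a score of 64.4 and rank 641. The outermost 2, 77.7 kb and 81.0 kb away on opposite sides, had scores of 4.45 and 6.41. At Slc30a8, then, 1 strong distal summit was joined by 4 weak ones, including the one at the gene boundary. No other protein-coding gene lay within 100 kb.

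Ero1b (gene ID 67475, chromosome 13, 12565818 to 12609533) encodes an oxidoreductase of the endoplasmic reticulum that helps form disulfide bonds, as in proinsulin. It had 2 summits, 3.84 kb and 5.84 kb upstream of the gene at positions 12561975 and 12559975, 2000 bases apart. Their scores were 7.43 and 13.7, with ranks 5742 and 3694. Both were nearest to Ero1b, and the next summit, 104 kb away and just outside the widest window, lay inside Lgals8 with a score of 3.02.

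The scores of the 14 summits ran from 4.45 to 135 with a median of 9.73, below the list's median of 13.7. The same held for the 2 comparison lists described below. Their medians within 100 kb were 11.4 for the 15 other beta cell genes and 7.96 for the 9 alpha cell genes. The 14 were a few strong summits and many weak ones, a shape that the full list shares. A score of 100 was reached by 2 of the 14, at Iapp and Pdx1, both upstream and both within 10 kb. Of all 7384 summits, 376 (5.09%) reached it. A summit of at least 100 within 10 kb was found at 1.65% of all protein-coding genes, against 2 of these 10, a threshold chosen after the values were seen. The next 3, at Slc30a8 (64.4), Slc2a2 (45.3) and Iapp (44.5), lay between 17.0 and 77.1 kb away. At the window limits, the Iapp summit at 8.90 kb was the last inside 10 kb and the Slc30a8 summit at 17.0 kb the first outside it. The Slc30a8 summit at 81.0 kb was the last inside 100 kb.

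**Figure D2:**
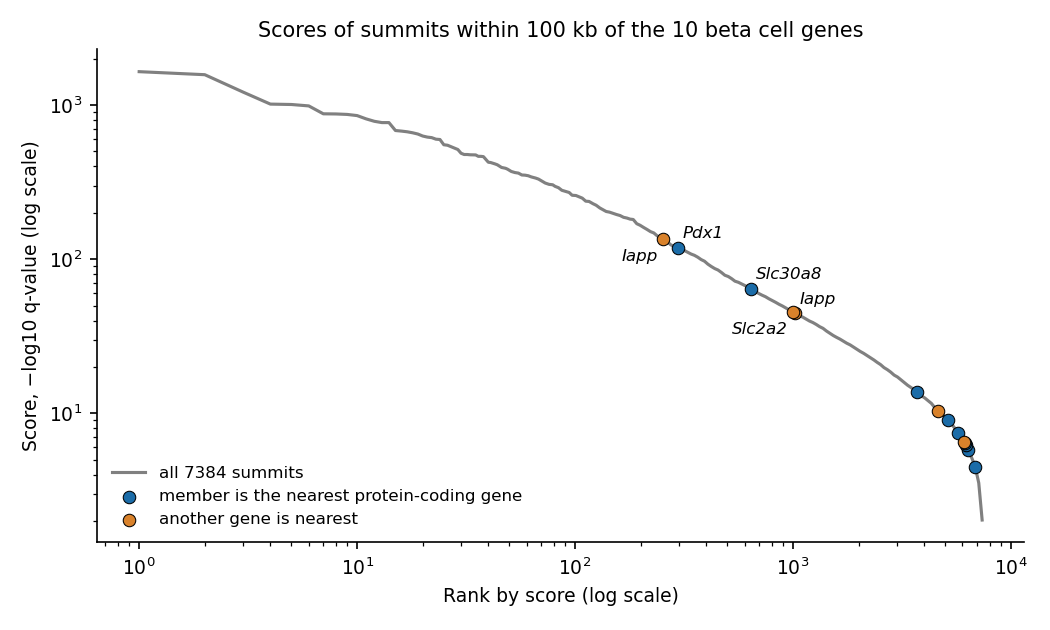
Score of each summit (y axis, −log10 q-value, log scale) against its rank in the list (x axis, log scale), with the line for all 7384 summits and points for the 14 within 100 kb of a beta cell gene. The points at Iapp (rank 253) and Pdx1 (rank 298) lie highest, 5 summits rank above 2000, and the other 9 rank 3694 or lower.

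How many of these summits belong to the genes by proximity was then counted. Assigning each summit only to its nearest protein-coding gene, at most 100 kb away, left 4 of the 10 genes with a summit, Pdx1, G6pc2, Slc30a8 and Ero1b. By that rule 21.7% of all protein-coding genes had one. The 6 others were without: Ins1, Ins2 and Ucn3 for want of any summit, and Iapp, Mafa and Slc2a2 because another gene was nearer. Within 1 kb of a boundary of another protein-coding gene lay 3 of the 14 summits, those at Pyroxd1, Top1mt and Rpl22l1. In the comparison lists described below it was 4 of 34 summits (other beta cell genes) and 0 of 20 (alpha cell genes). The share among all summits was not counted, so the 3 are a description only. The summits at Top1mt and Rpl22l1 were those that brought Mafa and Slc2a2 into the 100 kb window.

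The distance to the nearest summit ordered the genes from G6pc2 (inside), Slc30a8 (34 bases), Ero1b (3.84 kb), Pdx1 (5.98 kb) and Iapp (8.90 kb), through Mafa (67.0 kb) and Slc2a2 (77.1 kb), to Ins2 (218 kb), Ucn3 (307 kb) and Ins1 (774 kb). The median was 38.0 kb, against 71.5 kb for the 21627 protein-coding genes with a distance. The median of the 10 falls in the wide gap between Iapp and Mafa, where no gene lies. The genes themselves were short, with a median length of 5.57 kb against 17.2 kb for all protein-coding genes, and a window around a short gene covers less sequence. The part of gene length in these counts was not tested.

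**Figure D3:**
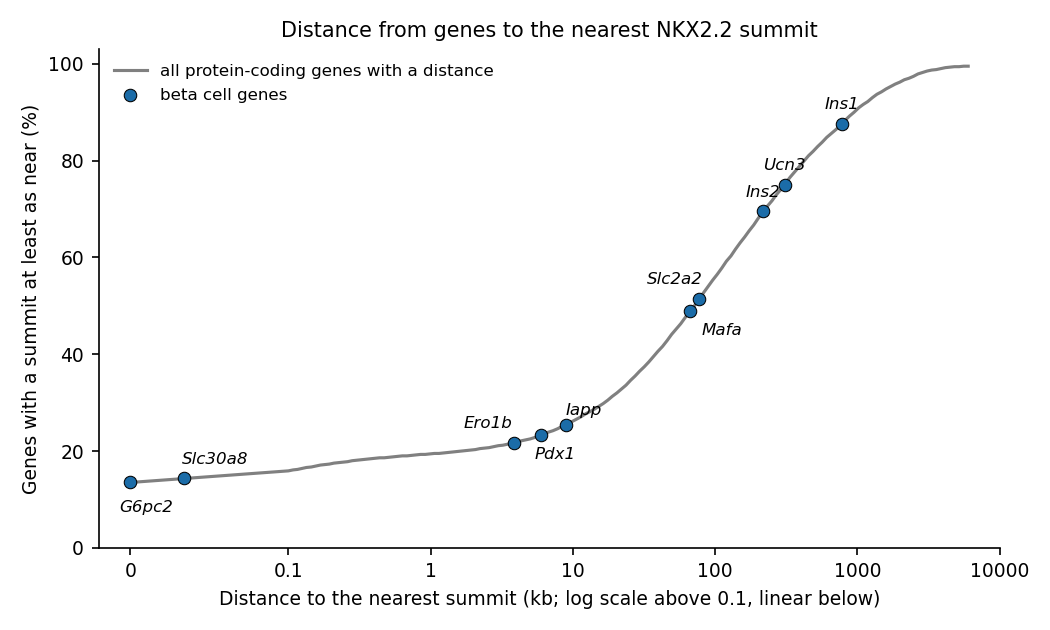
Percentage of protein-coding genes (y axis) with a summit at least as near as the distance on the x axis (kb, log scale above 0.1), as a line for the 21627 genes with a distance and as points for the 10 beta cell genes. In all, 5 genes lie at or below 8.90 kb, 2 between 67.0 and 77.1 kb and 3 at 218 kb or more, where Ins1 reaches 87.6%.

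For other genes of the beta cell programme, a list of 15 was used: the transcription factors Nkx6-1, Neurod1, Isl1, Pax4 and Mnx1, the KATP channel genes Abcc8 and Kcnj11, the prohormone processing and granule genes Pcsk1, Pcsk2, Cpe and Chga, and the receptors and channel Glp1r, Ffar1, Prlr and Trpm5. Several of these also serve alpha cells. Of the 15, 9 had a summit in the gene or at most 10 kb away, 12 at most 50 kb and 14 at most 100 kb away. The shares of all protein-coding genes in these windows were 25.8%, 43.8% and 55.3%. When each summit was assigned only to its nearest protein-coding gene, at most 100 kb away, 10 of the 15 had one. By that rule it was 4 of the 10 members and 21.7% of all protein-coding genes. Taking the highest summit of each gene within 10 kb, the top score was 271, inside Abcc8, which encodes the sulfonylurea receptor subunit of the KATP channel. The same summit falls within 50 kb of its neighbour Kcnj11. By the same measure the next genes were Chga (chromogranin A) with 30.7, Trpm5 (a cation channel) with 19.3, Prlr (the prolactin receptor) with 16.5 and Neurod1 (a basic helix-loop-helix factor) with 14.8. Glp1r, the GLP-1 receptor gene, named after its value was seen, was the 1 gene of the 15 without a summit within 100 kb, at 190 kb.

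As a comparison, 9 genes of the alpha cell were counted in the same way: Gcg, Irx1, Irx2, Slc38a5, Etv1, Sphkap, Gc, Pou3f4 and Dpp10. Of these, 7 had a summit in the gene or at most 10 kb away, where 25.8% of all protein-coding genes had one. The count was still 7 at 50 and 100 kb, against 43.8% and 55.3% of all genes. By nearest-gene assignment at most 100 kb away it was also 7, against 21.7% of all genes. A summit lay inside 5 of the 9, where 13.4% of all protein-coding genes had one. The median distance to the nearest summit was therefore 0 kb, against 38.0 kb for the 10 beta cell genes. The genes with a summit inside included the long Dpp10 (1514 kb), Sphkap (153 kb) and Etv1 (90.4 kb), and also the shorter Irx2 (9.77 kb). The longest of the 10 beta cell genes, Ero1b, was 43.7 kb. Median gene length was 9.77 kb for the 9 and 5.57 kb for the 10, and the part of length was again not tested. Taking again the highest summit of each gene within 10 kb, the top score was 329, inside Dpp10 and 42.7 kb from its start. The next genes were Slc38a5 (an amino acid transporter) with 101, Irx2 (an Iroquois factor) with 19.7, Etv1 with 11.8 and Sphkap with 9.22. Scores of at least 100 within 10 kb were thus found at 2 of these 9 genes, at 2 of the 10 beta cell genes and at 1 of the 15. Of all protein-coding genes, 1.65% had such a summit. All 3 lists were written by hand with earlier results of these data known, and the difference between them was not tested.

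**Figure D4:**
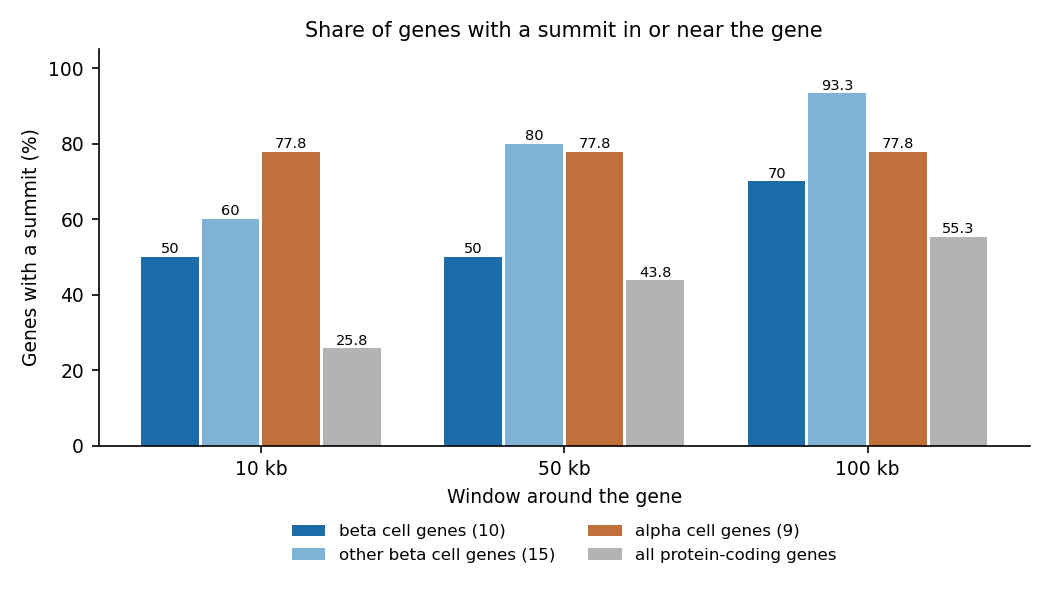
Percentage of genes with a summit in or within 10, 50 and 100 kb (x axis) for the 10 beta cell genes, the 15 other beta cell genes, the 9 alpha cell genes and all 21883 protein-coding genes (y axis, bars from 0, no error because there is 1 list). The 10 beta cell genes stay at 50% from 10 to 50 kb while the background rises from 25.8% to 43.8%.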

How the data were processed

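NKX2.2 ChIP and input libraries (2 samples each, grouped by their titles) are represented by 1 list of summits for the series. The deposited values are −log10 q-values (scores), written per summit by the authors' peak caller. Per the submitters' processing notes, FastQC, Bowtie2 and MACS2 were used with the mm10 build, which is GRCm38. Versions, duplicate handling and whether replicates were pooled for the call are not given in the sources used here.

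Summit starts were counted from 1 and compared with RefSeq genes of GRCm38.p6 (21883 protein-coding genes on chromosomes 1 to 19, X and Y). Of 7384 summits, 7380 lay on these chromosomes. A gene's distance is 0 inside it and otherwise runs to the nearer boundary. Nothing was tested between conditions, since the list has no value per library. The table gives no strand, so upstream and downstream follow the promoter table where it has the gene. Motifs were read in promoter windows in place of the planned summit windows, since no genome sequence was used here. The distance functions were tested on simulated data. Of the planned comparison lists, 1 gene of each is not reported here. Members and lists were chosen with earlier results of these data known. Named genes are the 10 members, the nearest genes of their summits, and at most 5 of each other list with a summit within 10 kb, by score; names outside this rule (Gtf3a, Gsdmd, Lgals8, Plut, Gm32950, Rhpn1, Kcnj11 and Glp1r as results) were added after their values were seen. Alternatives were score minimums of 5 and 10, merging within 500 bp, start sites, nearest-gene assignment and all annotated genes. Python 3.11.15, numpy 2.4.6, pandas 2.3.3 and matplotlib 3.10.9 were used.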

Additional observations from a re-analysis of the deposited data

How the results depend on the processing

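No paired analysis was possible because values per library are not in the summit list, which also prevented leaving out replicates. The planned motif search in summit windows of 300 and 100 bases was not run. With a score minimum of 10, the genes with a summit within 10 kb went from 5 to 3 (Iapp, Pdx1 and Ero1b), against 18.2% of all protein-coding genes, and the summits within 100 kb of a member went from 14 to 7. The median distance to the nearest summit rose from 38.0 to 95.1 kb, an alternative chosen after seeing the data. At that minimum G6pc2 and Mafa had no summit within 100 kb and Slc30a8 had 1. The same minimum left 4 genes at 50 kb and 5 at 100 kb, against 33.7% and 45.4% of all protein-coding genes. Counting only summits nearest to the gene gave 4 genes at 100 kb in place of 7, against 21.7% of all protein-coding genes by that rule. With all annotated genes as background, 16.7% had a summit within 10 kb in place of 25.8%. A score minimum of 5 and merging within 500 bp left the counts of genes at 5, 5 and 7. At the minimum of 5 the shares of all protein-coding genes, not planned in advance, were 23.7%, 41.2% and 53%. Measured from start sites, for the 7 genes with one, Slc2a2 left the 100 kb window at 108 kb (4 genes in place of 5). Read depth being unknown, a gene without a summit is a gene where no peak was called.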
